A study of Mus musculus with 12 samples.

Results

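From the 13951 genes of the deposited table, 7 genes of the inhibitory neuron programme were followed through 12 libraries of mouse ventral hippocampus. They were the transcription factor genes Dlx1 and Lhx6, the noncoding RNAs Dlx1as and Dlx6os1, the GABA synthesis genes Gad1 and Gad2, and the vesicular GABA transporter gene Slc32a1. They were chosen by name after earlier results of these data were known, including their differences between genotypes, so those differences are given below as descriptions with no test. All 7 passed the filter on low values, which left 13858 genes tested.

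Polyadenylated RNA was sequenced from 12 C57BL/6J mice of 12 to 16 weeks, 1 library per mouse, taken from the ventral end of the hippocampus on the right side. They fell into 4 groups of 3 mice by genotype and sex, with Angelman syndrome (AS) and wild-type (WT) mice of either sex. The labels do not state which mutation the AS mice carry, nor any treatment. In people, Angelman syndrome arises when the maternal allele of UBE3A, a ubiquitin ligase gene, is lost from the brain, and the series title asks about phenotypes that depend on sex.

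GABA is the main inhibitory transmitter of the hippocampus and is released there mostly by local interneurons. Dlx genes encode homeodomain transcription factors that set the fate of these neurons in the embryonic ganglionic eminences, and Lhx6 acts downstream of them in the lineage that gives somatostatin and parvalbumin cells. Gad1 and Gad2 encode the glutamate decarboxylases that make GABA, and Slc32a1 encodes the transporter that loads it into synaptic vesicles. Dlx1as and Dlx6os1 (also called Evf2) are transcribed antisense to, or beside, Dlx genes, and Dlx6os1 RNA is known to act on the Dlx5 and Dlx6 locus.

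The promoter sequences are shown because Dlx proteins are homeodomain factors. Their known core recognition letters, TAATT, can be looked for before annotated starts of these genes. RefSeq gave start sites for 6 of the 7 genes, with 9 windows of 250 bases before a start (build GRCm38.p6). Some starts are internal, so the window lies inside the gene span annotated by GENCODE. This holds for both Dlx6os1 windows, Lhx6 windows 2 and 3, and the windows of Dlx1 and Gad1. Annotated UTR covers 250 bases of the Dlx1 window, 122 of the Gad2 window and 87 of the Gad1 window. The motif searched was TAATT, on either strand (AATTA on the strand shown), with overlapping matches each counted. Capitals mark the matches in the lines below, each written 5′ to 3′ on the strand of its gene. The 2 Dlx6os1 windows lie at chr6:6869534-6869783 and chr6:6861684-6861933 on the minus strand, the Lhx6 window at chr2:36104061-36104310 on the minus strand, and the Slc32a1 window at chr2:158610508-158610757 on the plus strand.
Dlx6os1, window 1: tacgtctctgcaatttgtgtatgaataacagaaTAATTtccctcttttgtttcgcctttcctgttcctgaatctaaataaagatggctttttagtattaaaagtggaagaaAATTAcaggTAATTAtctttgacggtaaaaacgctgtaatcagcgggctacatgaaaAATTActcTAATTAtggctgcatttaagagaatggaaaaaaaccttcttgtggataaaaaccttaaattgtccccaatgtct
Dlx6os1, window 2: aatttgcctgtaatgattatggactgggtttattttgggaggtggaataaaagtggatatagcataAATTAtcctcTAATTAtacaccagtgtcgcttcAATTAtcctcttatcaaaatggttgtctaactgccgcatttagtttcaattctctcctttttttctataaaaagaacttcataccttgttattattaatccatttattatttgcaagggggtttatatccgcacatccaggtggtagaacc
Lhx6, window 3: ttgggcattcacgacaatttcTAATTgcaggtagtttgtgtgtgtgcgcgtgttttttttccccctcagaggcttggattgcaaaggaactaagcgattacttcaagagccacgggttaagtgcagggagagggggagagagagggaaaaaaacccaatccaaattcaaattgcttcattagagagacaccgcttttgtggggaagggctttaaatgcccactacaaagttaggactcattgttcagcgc
Slc32a1, window 1: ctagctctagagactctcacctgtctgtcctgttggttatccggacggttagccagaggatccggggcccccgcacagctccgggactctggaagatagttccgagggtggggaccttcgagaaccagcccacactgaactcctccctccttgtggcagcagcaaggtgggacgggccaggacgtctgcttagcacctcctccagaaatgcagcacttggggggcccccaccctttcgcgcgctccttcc
The Dlx6os1 windows held 7 and 4 matches. The Lhx6 window held 1, and the Slc32a1 window held 0, as did the windows of Dlx1, Gad1 and Gad2 and the other Lhx6 windows. Of 32851 RefSeq promoter windows of this length, 25.03% held at least 1 match, 3.46% at least 3 and 0.56% at least 5. The Dlx6os1 windows were also poor in G and C, at 33.2% and 34%, against a median of 52.4% over all windows and 62.4% for Slc32a1. A match describes the letters of the window, not a site that a factor binds. The motif was chosen after the expression values were seen.

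Some libraries stood apart from their labels or their groups. In the library labelled WT female replicate 1, Xist was at 0.35 on the log2 scale, within the range of the 6 males (0.17 to 0.52) and below the other 5 females (6.00 to 6.45). The mean of 4 Y-linked genes in that library was 0.68, inside the range of the other females (0.24 to 0.93) and below the males (3.86 to 4.19), so Xist departed from the label and the Y-linked genes did not. Choroid plexus genes were high in 4 libraries, WT female replicates 1 and 2, AS female replicate 2 and AS male replicate 2, with a list mean of 3.51 to 5.65 against 1.59 to 2.18 in the other 8. Results are therefore also given without the first library and without these 4. Leaving out the 4 keeps 1 WT female (replicate 3), 2 AS females, 3 WT males and 2 AS males, and the lone WT female is then assumed to vary like the other groups. Ube3a overlapped between genotypes, at 3.99 to 4.34 in WT and 3.78 to 4.31 in AS, and because the mutation is not given, this level does not check the labels.

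Levels are log2(abundance + 1), from a table read as natural logs of a per-length abundance, so levels can be compared between genes. Gad1 had the highest mean level over 12 libraries, 7.25, above 96.2% of the genes tested. Gad2 followed at 5.50, Slc32a1 at 4.70, Dlx1 at 4.49, Dlx1as at 3.90, Lhx6 at 3.22 and Dlx6os1 at 2.88. The order of neighbours held in 12 of 12 libraries except for Slc32a1 over Dlx1 and Lhx6 over Dlx6os1, which held in 11 each. Gad1 exceeded Gad2 by 1.57 to 1.88 in every library, whereas the gap between Slc32a1 and Dlx1 ran from -0.03 to 0.38 and did not exceed its spread. Dlx1as had a mean abundance per length of 14.0, against 21.6 for Dlx1.

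**Figure D1:**
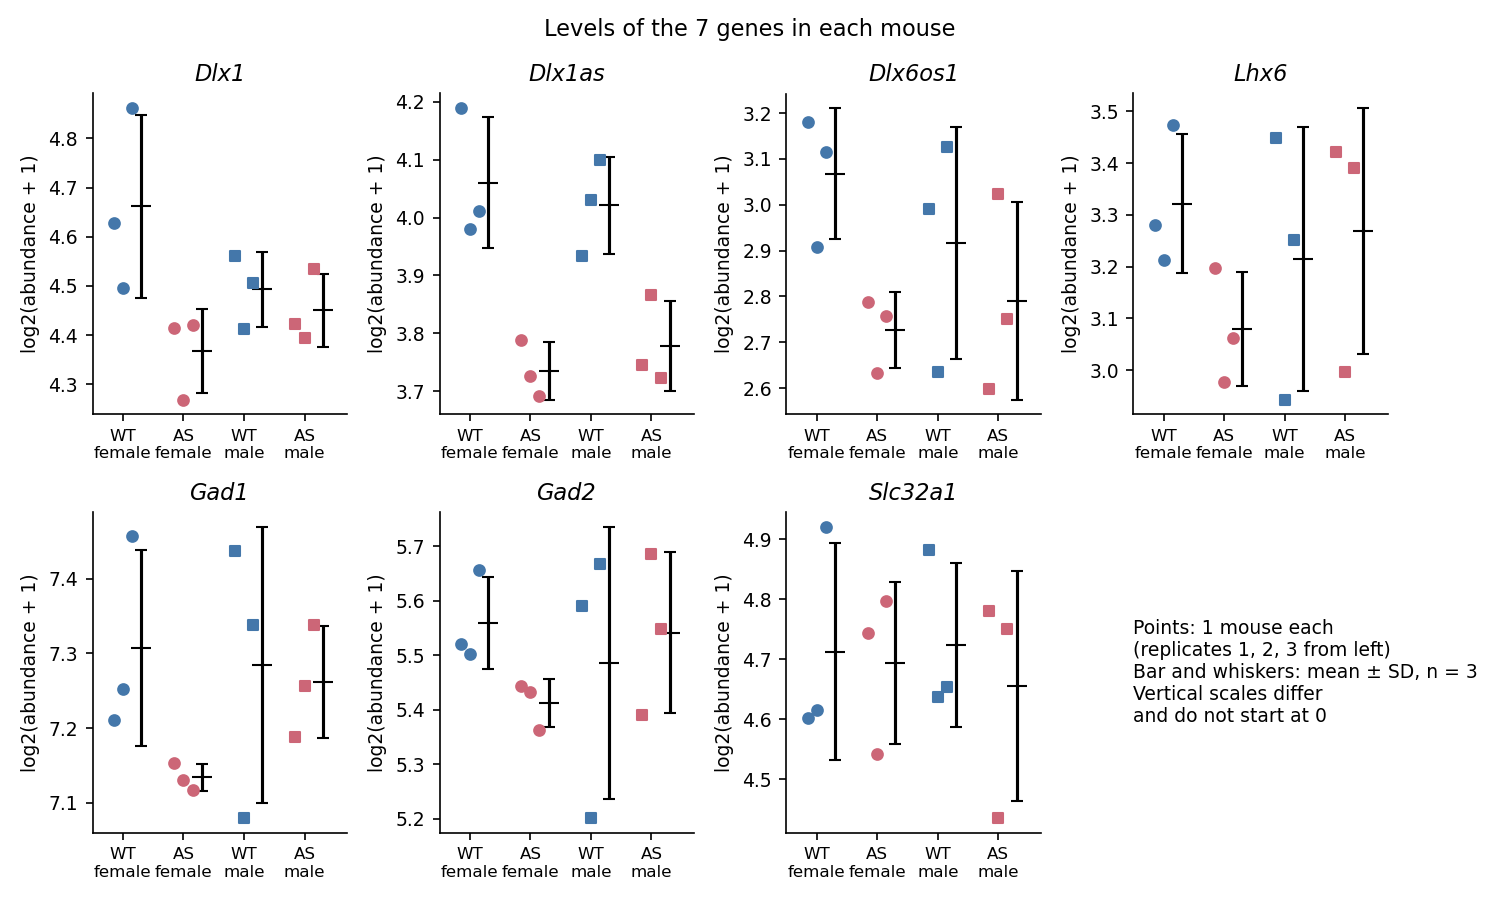
Level of each of the 7 genes in each library, as log2(abundance + 1), by group of 3 mice, with a point for each mouse and bars for the mean ± SD. Vertical scales differ between genes. Dlx1as lies between 3.69 and 3.87 in all 6 AS libraries and between 3.93 and 4.19 in all 6 WT libraries, while Slc32a1 overlaps in both sexes.

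Dlx1as was the gene whose AS and WT libraries were separate in both sexes. It is annotated on the minus strand of chr2:71516454-71537891 (ENSMUSG00000084946, GRCm38), where it spans Dlx1. Its level in the 3 WT females was 4.19, 3.98 and 4.01, and in the 3 AS females 3.79, 3.73 and 3.69. In WT males it was 3.93, 4.03 and 4.10, and in AS males 3.74, 3.87 and 3.72. Every AS library lay below every WT library, so neither sex overlapped. AS minus WT was -0.32 ± 0.08 (SE, n = 3 per group) in females, -0.24 ± 0.08 in males and -0.28 ± 0.06 over both sexes, a ratio of (abundance + 1) of 0.821. When WT female replicate 1, with low Xist and low Y-linked genes, was left out, the female difference was -0.26, and without the 4 libraries high in choroid plexus genes it was -0.27, with -0.29 in males. Groups separate and lower in AS were found for 0.13% of all genes over both sexes and for 0.274% separately within females and within males at once. These contrasts were known when the gene was chosen. In bulk tissue, fewer cells of a type and less RNA per cell cannot be told apart, here and for every gene below.

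Dlx1, the coding gene on the other strand of that locus (ENSMUSG00000041911, chr2:71528113-71533981), had separate levels in females and overlapping levels in males. WT females were at 4.63, 4.50 and 4.86 and AS females at 4.41, 4.27 and 4.42. WT males were at 4.56, 4.41 and 4.51 and AS males at 4.42, 4.40 and 4.53, which overlapped. The genotype difference was -0.29 ± 0.09 in females and -0.04 ± 0.09 in males. The female difference ran from -0.38 to -0.19 as single libraries were left out, with -0.19 when WT female replicate 3, the highest of all 12, was omitted. Without the 4 libraries high in choroid plexus genes it was -0.44. GENCODE exons of Dlx1as and Dlx1 share 335 bases (chr2:71532784-71533118), which are 20.6% of the 1630 exonic bases of Dlx1as and 6.21% of those of Dlx1. The labels do not say that the counting used strand, and without it reads from the shared bases cannot be told apart.

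Dlx6os1 (ENSMUSG00000090063, chr6:6820189-6871592, minus strand), the gene with the motif-rich windows shown above, was the lowest expressed of the 7. It was at 3.18, 2.91 and 3.12 in WT females and at 2.79, 2.63 and 2.76 in AS females. The female groups did not overlap. In the other sex, WT males were at 2.99, 2.64 and 3.13 and AS males at 2.60, 3.02 and 2.75, so the male groups crossed. AS minus WT was -0.34 ± 0.14 in females, the lowest value among the 7 genes, and -0.13 ± 0.14 in males. The male value ran from -0.27 without WT replicate 2 to -0.02 without WT replicate 3. Its annotated exons share 0 bases with those of Dlx6 and Dlx5.

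The other Dlx genes were measured less precisely. Dlx2 and the pair Dlx5 and Dlx6 encode the remaining Dlx factors that were measured, and they were low, at mean levels of 1.44, 1.81 and 2.67. AS minus WT in females was -0.02 ± 0.17 for Dlx2, 0.03 ± 0.22 for Dlx5 and 0.04 ± 0.27 for Dlx6. In males it was -0.17 ± 0.17, 0.20 ± 0.22 and 0.09 ± 0.27. None of the 3 was called in any genotype contrast, and no test compared them with Dlx1, Dlx1as or Dlx6os1.

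Lhx6 (ENSMUSG00000026890, chr2:36081953-36105408, minus strand) had WT female levels of 3.28, 3.21 and 3.47 and AS female levels of 3.20, 2.98 and 3.06. The female groups were separate, by the narrowest margin among the 6 genes that were. WT males were at 3.45, 2.94 and 3.25 and AS males at 3.42, 3.00 and 3.39, which overlapped throughout. AS minus WT was -0.24 ± 0.15 in females and 0.05 ± 0.15 in males, and in males the value ran from -0.08 without WT replicate 2 to 0.19 without AS replicate 2. Among 16 other transcription factor and lineage genes of interneurons, such as Sox6 and Maf, 10 were lower in AS females (median -0.05) and 6 lower in AS males (median 0.02), with 0 called.

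For the glutamate decarboxylases the female groups were separate by narrow gaps. Gad1 (ENSMUSG00000070880, chr2:70553072-70602014, plus strand), which makes most of the basal GABA pool, was at 7.21, 7.25 and 7.46 in WT females and at 7.15, 7.13 and 7.12 in AS females. In males it was at 7.44, 7.08 and 7.34 in WT and at 7.19, 7.26 and 7.34 in AS. AS females were close together and below all WT females, whereas AS males lay inside the WT male range. The genotype difference was -0.17 ± 0.09 in females and -0.02 ± 0.09 in males, where leaving out 1 library gave -0.13 (WT replicate 2) to 0.05 (WT replicate 1). The female value was -0.10 without WT female replicate 3, the highest library, and -0.32 without the 4 libraries high in choroid plexus genes.

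Gad2 (ENSMUSG00000026787, chr2:22622205-22693874, plus strand), the enzyme enriched at nerve endings, was at 5.52, 5.50 and 5.66 in WT females and at 5.44, 5.43 and 5.36 in AS females. WT males were at 5.59, 5.20 and 5.67 and AS males at 5.39, 5.69 and 5.55. The female groups were again apart and the male groups were not. The difference was -0.15 ± 0.11 in females and 0.06 ± 0.11 in males, where it ran from -0.09 without WT replicate 2 to 0.15 without WT replicate 3. Of 8 other genes that supply glutamate and glutamine for GABA synthesis, 5 had a lower mean in AS among females and 3 among males (48.4% and 47.6% of all genes did), and 0 were called. Glul, the glutamine synthetase of astrocytes, had an AS minus WT value of -0.27 ± 0.10 over both sexes, with an unadjusted p of 0.025 and a limma adjusted p of 0.893.

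Slc32a1 (ENSMUSG00000037771, chr2:158610767-158615748, plus strand) was the exception among the 7. WT females were at 4.60, 4.62 and 4.92 and AS females at 4.74, 4.54 and 4.80. WT males were at 4.88, 4.64 and 4.65 and AS males at 4.78, 4.44 and 4.75. Both sexes overlapped. AS mice differed from WT by -0.02 ± 0.12 in females and -0.07 ± 0.12 in males, and in females it ran from -0.07 without WT replicate 1 to 0.09 without WT replicate 3. In males it turned to 0.04 without AS replicate 2. Among 6 other genes of vesicle loading and membrane uptake, 5 were lower in AS females (median -0.06) and 5 higher in AS males (median 0.14), with 0 called. Slc6a8, a creatine transporter of the same family, was at -0.15 ± 0.06 in males with a limma adjusted p of 0.763.

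Counted together, 7 of 7 genes had a lower mean in AS females than in WT females, with a median difference of -0.24 against 0.0048 over all genes, of which 48.4% were lower. The AS and WT females were separate for 6 of them, all but Slc32a1, and groups separate in that direction were found for 4.02% of all genes. Nothing is read from that count, since the female contrast was known when the genes were chosen. In males 5 of 7 were lower, with a median of -0.04, and 1 of 7 was separate (Dlx1as) against 5.18% of all genes. Over both sexes 7 of 7 were lower, with a median of -0.10. At a limma adjusted p under 0.05, 0.0% of all genes were called in females, in males and over both sexes, while 438, 890 and 741 genes had an unadjusted p under 0.05.

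The libraries that stood apart moved sizes more than signs in females. Without WT female replicate 1, low in Xist with Y-linked genes at female level, the female difference was -0.31 for Dlx1, -0.29 for Dlx6os1, -0.26 for Lhx6, -0.22 for Gad1, -0.17 for Gad2 and -0.07 for Slc32a1. Without the 4 libraries high in choroid plexus genes it was -0.34 for both Dlx6os1 and Lhx6, -0.25 for Gad2 and -0.15 for Slc32a1. The single WT female kept in that fit, replicate 3, was the highest of all libraries in 4 of the 7 genes. In males the same fit gave 0.19 for Lhx6, -0.24 for Dlx6os1, -0.02 for Gad2 and 0.04 for Slc32a1.

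**Figure D2:**
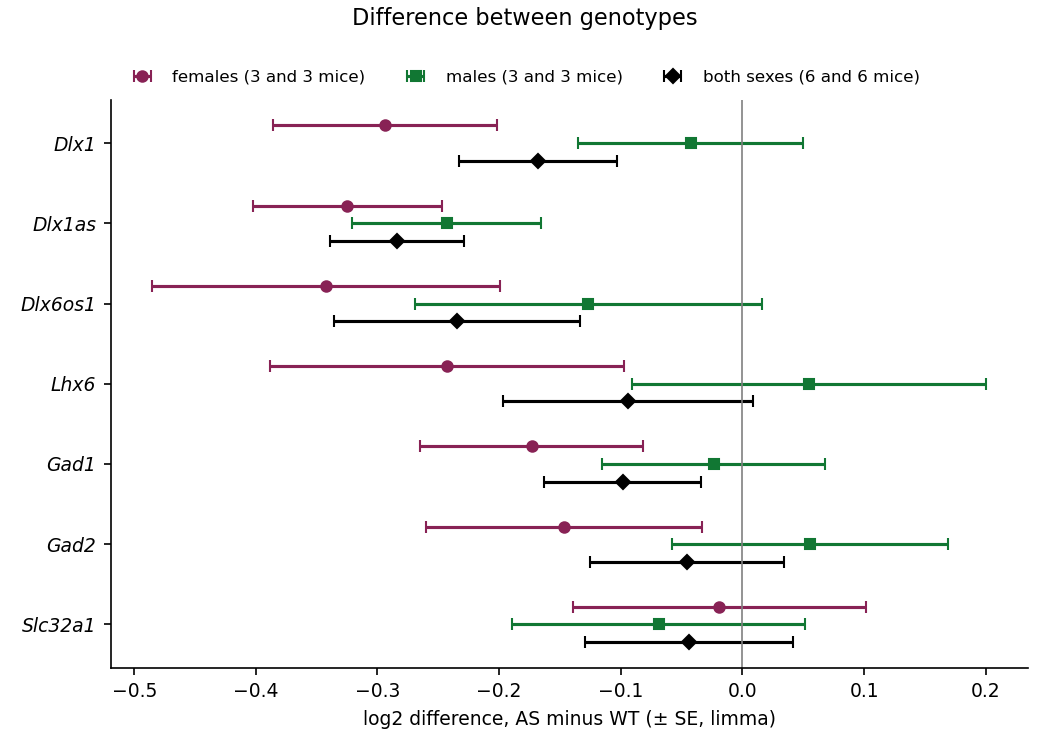
AS minus WT for each of the 7 genes, in log2(abundance + 1), with points for the model estimates and bars for their standard errors, in females, in males and over both sexes. Female values run from -0.34 to -0.02 and male values from -0.24 to 0.06.

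The male difference minus the female difference was 0.25 ± 0.13 for Dlx1, 0.30 ± 0.21 for Lhx6, 0.22 ± 0.20 for Dlx6os1, 0.20 ± 0.16 for Gad2 and 0.15 ± 0.13 for Gad1. It was 0.08 ± 0.11 for Dlx1as and -0.05 ± 0.17 for Slc32a1. Limma called 0.0% of all genes for this difference, and 522 had an unadjusted p under 0.05. No test is given for the 7 genes because these values contain the female contrast, so a genotype difference that depends on sex was not shown for any of them. WT male replicate 2 was the lowest of all 12 in Lhx6, Gad1 and Gad2, while for Dlx1as it was the third highest. That library also had the highest mean over the genes of cortex and subiculum, 3.53 against 2.36 to 3.25 in the others, and its part in the result was not tested. Without it 7 of 7 genes were lower in AS males, with a median of -0.11 and with -0.27 for Dlx6os1, -0.24 for Dlx1as, -0.13 for Gad1 and -0.08 for Lhx6.

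Sex over both genotypes was the comparison not used in choosing the genes, and none of the 7 was called in it. Male minus female over both genotypes (6 against 6 libraries) ran from -0.04 to 0.05. It was 0.05 ± 0.06 for Gad1 (95% interval -0.09 to 0.19, limma adjusted p = 0.913), -0.04 ± 0.07 for Dlx1 (adjusted p = 0.931) and 0.00 ± 0.06 for Dlx1as (interval -0.12 to 0.12, adjusted p = 0.997). The other adjusted p were 0.959 for Dlx6os1, 0.962 for Lhx6, 0.971 for Gad2 and 0.988 for Slc32a1. Limma called 0.0361% of all genes, which are Eif2s3y, Ddx3y, Uty, Kdm5d and Kdm5c, while 958 genes had an unadjusted p under 0.05. These p do not show that levels were equal in both sexes. Within genotypes, where the values share libraries with the female contrast and are not tested, 6 of 7 genes were lower in WT males than in WT females and 6 of 7 higher in AS males than in AS females. For Gad1 the AS sexes were separate, at 7.12 to 7.15 in females and 7.19 to 7.34 in males, and groups separate in that direction were found for 4.99% of all genes. Without the 4 libraries high in choroid plexus genes the Gad1 value turned to -0.022, that of Dlx1 was -0.15 ± 0.06 and that of Dlx6os1 -0.15 ± 0.13, and none of the 7 was called in that fit. Without WT female replicate 1 the 7 values ran from -0.05 for Dlx1 to 0.03 for Dlx1as. Of the other pathway genes none was called by sex. Those with the smallest unadjusted p included Slc6a8 at 0.14 ± 0.04 (limma adjusted p = 0.675), Cort at -0.35 ± 0.11 and Crhbp at -0.22 ± 0.08.

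Across libraries most of the 7 genes varied together, Dlx1as and Slc32a1 less so. Over 21 pairs of genes, Pearson's r over 12 libraries ran from -0.12 to 0.81 with a median of 0.53, and 19 were positive. Slc32a1 was at -0.12 with Dlx1as, near 0 with Gad2 and Dlx6os1, and 0.72 with Lhx6. The r with the mean of the 7 genes, which each gene is part of, was lowest for Slc32a1 (0.51) and Dlx1as (0.55) and highest for Dlx1 and Gad1 (both 0.91). After subtracting the group means, r was 0.86 for Dlx6os1 and Gad2, 0.85 for Lhx6 and Slc32a1 and 0.80 for Gad1 and Gad2. For Dlx1as it was -0.60 with Slc32a1, -0.40 with Lhx6, -0.33 with Gad1 and -0.18 with Dlx1, whose locus it shares. The libraries share a tissue piece and a normalization across all genes, so these r describe the libraries and carry no p. WT female replicate 3 was the highest of all 12 in Dlx1, Lhx6, Gad1 and Slc32a1.

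**Figure D3:**
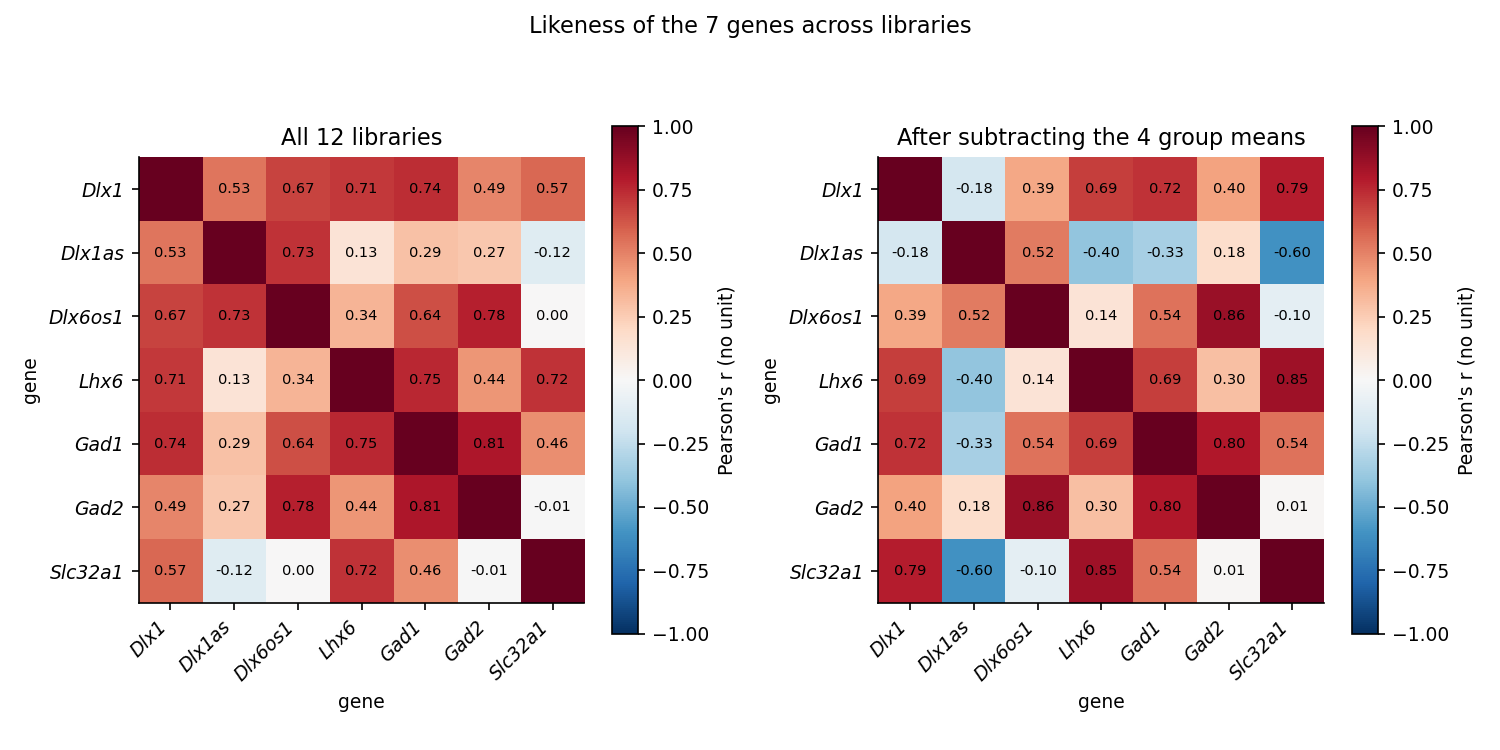
Pearson's r between the 7 genes over 12 libraries, from the log2 levels and from deviations from the 4 group means. Within groups 16 of 21 pairs are positive, and 4 of the 5 negative pairs hold Dlx1as, down to -0.60, the fifth being Dlx6os1 with Slc32a1 at -0.10.

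The genes most like the mean of the 7, each gene scaled to its spread over 12 libraries, were Hmgn3 (r = 0.90), Mageh1 (0.87), Snx1 (0.85), Dnajc28 (0.85), P2rx5 (0.85), Sst (0.84), Ctla2a (0.83), Rxfp3 (0.83), Gstm1 (0.83) and Akain1 (0.82). Sst encodes somatostatin, the peptide of a large interneuron class, and was at a mean level of 8.52. The most unlike genes were Rffl (-0.90), Cd59b (-0.88), Bpnt1 (-0.83), Ptpn6 (-0.82) and Evi2a (-0.82). The median r over all genes was 0.0078. Among the listed genes of GABA synthesis, its supply and GABA breakdown outside the 7, r ran from -0.67 for Gls2, a glutaminase gene, to 0.72 for Abat, which breaks GABA down.

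Markers of other cells moved with the 7 genes in part. Of 8 Cajal-Retzius genes 4 were measured (Reln, Ndnf, Calb2 and Cacna2d2), of which interneurons also express at least Reln, Ndnf and Calb2. Their mean had r = 0.87 with the mean of the 7, while Calb2 alone had 0.65, Ndnf 0.49 and Reln only 0.19. Calb2 is also in the neuroblast list below, so the 2 lists are not separate. The defining Cajal-Retzius genes Trp73, Lhx1, Lhx5 and Ebf3 had no row under these symbols in the deposited table, so their levels could not be given. The means of 5 of 10 neuroblast genes (Dcx, Dlx2, Cd24a, Calb2 and Tubb3) and of 10 of 10 astrocyte genes had r = 0.75 and 0.71. No gene of the deposited table was at 0 in any library (lowest natural log 0.10), so values above 0 do not show that a cell type was present. The summed abundance of the Cajal-Retzius genes was 89.2 to 112 in WT females and 68.4 to 83.7 in AS females, with 71.6 to 98.8 in WT males and 93.2 to 100.4 in AS males. Neuroblast genes summed to 207 to 240 in WT females and 204 to 224 in AS females, and astrocyte genes to 1286 to 1400 and 1252 to 1326. In males neuroblast genes summed to 223 to 238 in WT and 206 to 250 in AS, and astrocyte genes to 1311 to 1360 and 1302 to 1367. Their part in the result was not tested. Oligodendrocyte lineage genes went the other way (r = -0.58), with 8 of 12 higher in AS females (median 0.17) and 8 of 12 in AS males (median 0.08). They summed to 1627 to 2183 in WT females, 1591 to 2569 in AS females, 1398 to 2525 in WT males and 1639 to 1912 in AS males, so the groups overlapped. Meningeal fibroblast genes had r = 0.45, with 8 of 9 lower in AS females (median -0.35) and 4 of 9 in AS males (median 0.03). They summed to 452 to 1632 in WT females and 269 to 1326 in AS females, and to 526 to 1882 and 656 to 1291 in males. No gene of either list was called, and their part in the result was not tested. Excitatory neuron genes, led by Camk2a, Nrgn and Slc17a7, summed to 1784 to 2121 in WT females and 1874 to 2245 in AS females (r = -0.32), and to 1892 to 2120 in WT males and 1761 to 2163 in AS males. GABAergic genes of striatum, central amygdala and septum summed to 158 to 191 and 157 to 193 (r = -0.15), and to 161 to 181 and 148 to 164 in males. Drd1 was at 1.10 to 1.98 and Drd2 at 1.12 to 1.77. For the remaining lists r was -0.34 for thalamus, -0.25 for microglia, -0.19 for choroid plexus and -0.10 for cortex and subiculum. It was -0.07 for endothelium and pericytes and 0.02 for ependyma. The thalamus list also holds Calb2.

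Subtype genes of interneurons, which mark classes such as somatostatin and parvalbumin cells, were mostly lower in AS females. Of 26 such genes outside the 7, 23 were lower in AS females (median -0.12) and 16 in AS males (median -0.05), against 48.4% and 47.6% of all genes, and 0 were called. Sst was at -0.32 ± 0.15 in females and -0.07 ± 0.15 in males, and Pvalb, the parvalbumin gene, at 0.05 ± 0.11 and -0.26 ± 0.11. Crhbp, a binding protein of stress peptides found in somatostatin cells, was at -0.30 ± 0.11 in females and -0.12 ± 0.11 in males. Tac2, which encodes neurokinin B, was at 0.40 ± 0.14 in females and 0.23 ± 0.14 in males, and so opposite in sign. Reln, which encodes an extracellular protein of interneurons and Cajal-Retzius cells, was at -0.39 ± 0.15 in females and -0.35 ± 0.15 in males. Calb2, the calretinin gene, was at -0.55 ± 0.23 in females and 0.46 ± 0.23 in males. In males Kcnc1, a fast potassium channel of parvalbumin cells, was at -0.26 ± 0.08 and Cort, which encodes cortistatin, at 0.42 ± 0.16. The female values were -0.01 ± 0.08 for Kcnc1 and -0.25 ± 0.16 for Cort. Vip, a peptide gene of a further class, was at -0.36 ± 0.13 in males and -0.19 ± 0.13 in females. Lamp5, a marker of neurogliaform cells, was at -0.56 ± 0.22 in males and -0.43 ± 0.22 in females. WT male replicate 2, noted above, was the highest of all 12 in Pvalb, Reln, Vip, Lamp5 and Kcnc1 and the lowest in Calb2. WT female replicate 3, also noted above, was the highest of all 12 in Sst, Calb2, Crhbp and Cort, among others. The count of 23 genes lower in AS females was not repeated without that library. The difference between the sexes was not tested, and adjusted p by limma were at least 0.748 in each case.

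The postsynaptic side showed the other sign with small values. Of 14 GABA-A and GABA-B receptor genes, 9 were higher in AS females and 11 over both sexes, with 0 called. Of 10 genes of the inhibitory postsynapse and of chloride transport, 8 were higher in AS females and 10 over both sexes, with a median of 0.03 and 0 called. Of 4 genes of GABA breakdown, 3 were lower in each sex.

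**Figure D4:**
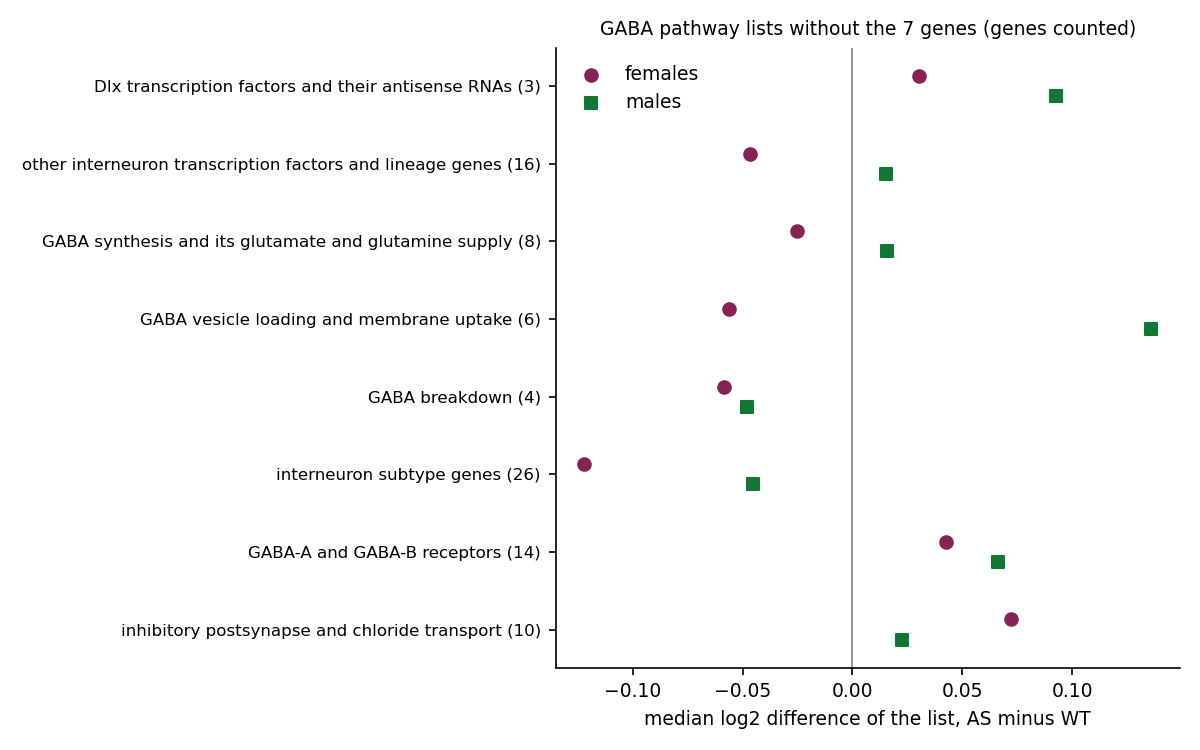
AS minus WT in log2(abundance + 1) as the median of each of 8 pathway lists without the 7 genes, with circles for females and squares for males. Subtype genes have medians of -0.12 in females and -0.05 in males, and vesicle loading and uptake genes -0.06 and 0.14.

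The position of Dlx1as on its chromosome was examined through its neighbours, a rule set after the values were seen. Of 11 other tested genes within 500 kb, 1 was lower in AS over both sexes, Dlx2 at -0.09, and the range was -0.09 to 0.13 with a median of 0.10. Metap1d, whose span overlaps that of Dlx1as, was at 0.09 ± 0.07, and Hat1 at 0.13 ± 0.05 (limma adjusted p = 0.905). None was called and none had separate genotypes. Near the other genes, 9 of 11 neighbours of Slc32a1, 0 of 7 of Lhx6, 3 of 6 of Gad1, 2 of 6 of Gad2 and 1 of 5 of Dlx6os1 were lower. Over all genes 47.3% were lower in AS over both sexes. The highest value near Dlx6os1 was 1.07 ± 0.29, for a predicted gene that overlaps it. That gene was low, at a mean level of 1.00, and was not called (limma adjusted p = 0.661).

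**Figure D5:**
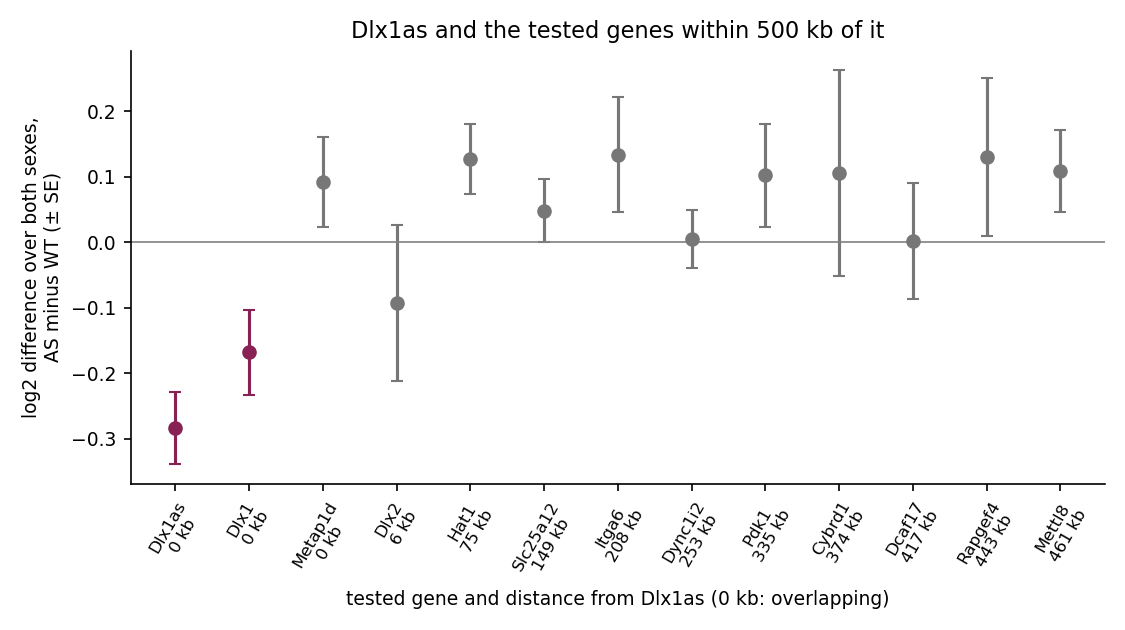
AS minus WT over both sexes in log2(abundance + 1) for genes within 500 kb of Dlx1as, ordered by distance from it in kb, with standard errors. Dlx1as and Dlx1 lie below 0, at -0.28 and -0.17, and 10 of the 11 other genes lie at or above 0.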

How the data were processed

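Per the submitters' processing notes, the authors used Trimmomatic, Bowtie2 and RSEM with GRCm38 (mm10), with no versions given. The deposited values were read as the natural log of an RSEM abundance plus 1. The base, the constant, the normalization, the filter and whether the abundance is TPM or FPKM are not given in the sources used here. If the base were 2, differences would be 0.693 times as large. Depth is unknown, so values carry no counting interval.

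The scale used throughout is log2(abundance + 1). The filter removed 93 genes whose mean abundance was below 1. Limma 3.58.1 in R 4.3.3 fitted 4 group means to all 12 libraries, with a variance trend and 8 residual degrees of freedom, and errors are its standard errors. Called means a p below 0.05 after Benjamini-Hochberg adjustment over 13858 genes. The fit was tested on simulated data with independent normal noise and log2 genotype differences of 1 and 2 in size. It called 96% and 97% of the 100 changed genes of each size. Differences as small as those of the 7 genes were not simulated, so this does not show how often such differences would be called. Groups came from the labels, replicate numbers from accession order, and exons from GENCODE on GRCm38. One library per mouse was used, and no other batch than 1 lane number, 7, is labelled.

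The members and lists were chosen with earlier results of these data known. In each pathway list genes with an unadjusted p under 0.05 are named, at most 4, beside the 10 genes most like and 5 least like the members. Dlx2, Dlx5, Dlx6, Abat, Gls2, Pvalb, Sox6 and Maf are named outside that rule. Some genes of the lists are not reported here. Alternatives changed the constant (0.1 and 5), the filter, the base, normalization, weights, the variance trend, the samples fitted and the libraries left out.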

Additional observations from a re-analysis of the deposited data

How the results depend on the processing

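The median genotype difference over the 7 genes stayed below 0 in females and over both sexes under every alternative run, and moved by less than the spread between replicates in males. Dlx1, Dlx1as and Dlx6os1 kept their sign in each genotype contrast under every alternative. Signs turned under 3 or 4 alternatives for Gad1, Gad2, Lhx6 and Slc32a1 in males, and under 3 for Slc32a1 in females and over both sexes. With base 2 the Dlx1as difference was -0.23 in females and -0.20 over both sexes. Without the 4 libraries high in choroid plexus genes limma called 5 genes in females, 1 in males, 2 over both sexes and 12 by sex, where Gad1 turned to -0.022; the cause was not tested. With a mean abundance of at least 5 it called 3 genes by sex, Ddx3y, Eif2s3y and Kdm5c, and Uty and Kdm5d were not among them. That filter drops genes of lower mean abundance before the fit, so a gene missing from the calls need not have been tested. Leaving out 1 library gave 0 to 1 called genes in females, 0 to 1 in males, 0 to 2 over both sexes and 4 to 8 by sex. None of the 7 genes was called in any of these fits. No paired analysis was possible because the labels give no replicate numbers that link mice of different groups. The alternative of fitting only the groups compared was run for females and for males. Depth is unknown and limits what can be said of low genes such as Dlx6os1.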
